A study of Mus musculus with 4 samples.

Results

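The genes described here are 39 genes of the mTOR pathway, out of 32285 genes in the count matrices. They encode the mTOR kinase and its complex subunits, the TSC complex with Rheb, the Rag GTPases and Ragulator, the Sestrins, GATOR1 and GATOR2, the FLCN-FNIP complex, the S6 kinases, translation factors downstream of mTORC1, and Ddit4. The list was set by gene symbol, and each symbol matched 1 row. Earlier results of these data were known when the genes were chosen. Their RNA was followed across 7 bone marrow cell populations and 3 treatments.

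The mice were 6 females aged 6 weeks, all carrying Tppp3CreER, a tamoxifen-activated Cre recombinase driven by Tppp3, and LSLTdTomato, a reporter that Cre switches on. Tamoxifen was given on postnatal days 0 and 3 to 2 mice, and tamoxifen with rapamycin on the same days to 2 mice. The remaining 2 mice received rapamycin alone on postnatal day 30, without labelling, and are called the late rapamycin mice here. No mouse went without both drugs, so the late rapamycin mice differ from the tamoxifen mice in both agents and in time. The labels give isolation at 6 weeks, while the series description speaks of isolation after 2 weeks. Bone marrow was taken as whole marrow and as Lin-Sca+Kit+ and Lin-Sca-Kit+ cells, so the shares of cell types were set by the sort. One mouse of each treatment was processed on each of 2 days, and the replicate number is the day. The treatment of each cell came from the table of hashtag antibodies, which numbers the tamoxifen and the tamoxifen with rapamycin mice the other way round from the sample labels. If the numbers in the labels are hashtag numbers, these treatments are exchanged.

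mTOR is a kinase that works in a pair of complexes. mTORC1 contains Raptor and promotes protein synthesis and growth, and mTORC2 contains Rictor. Amino acids bring mTORC1 to the lysosome through the Rag GTPases, which are anchored there by Ragulator. GATOR1 inactivates the Rag GTPases, GATOR2 opposes GATOR1, and the Sestrins bind GATOR2 when amino acids are scarce. At the lysosome Rheb activates mTORC1, and the TSC complex switches Rheb off. Rapamycin, bound to FKBP12, inhibits mTORC1. In blood stem cells, deletion of Tsc1 is known to drive cells out of quiescence. These regulatory steps act mostly on proteins, and only RNA was measured here.

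In all, 34368 cells were kept, 17808 from day 1 and 16560 from day 2, with 22411843 to 35656085 unique molecular identifiers (UMIs) per mouse. Cells were assigned to populations by gates, which score each cell for lists of marker genes that contain none of the 39 genes. The HSC gate (haematopoietic stem cell markers such as Mecom, Hlf and Mllt3) held 4094 cells. Of these, 2295 lay in the expression cluster that raised the most HSC markers. That share ran from 48.35% in late rapamycin replicate 1 to 62.41% in tamoxifen replicate 2. No UMI of 10 division genes was counted in 2671 cells of the gate. The other tested gates were lymphoid-primed progenitors (3920 cells), neutrophil progenitors (2901), neutrophils (4798), monocytes (1426), B cells (3545) and erythroid progenitors (3394). Each of these gates had at least 113 cells in every mouse. A gate is a range of scores, and 679 cells of the HSC gate lay within 10% above its minimum. UMIs were summed per mouse and gate, and a mouse counted as 1 replicate.

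One mouse stood apart. In late rapamycin replicate 1, 78.55% of the neutrophil gate lay in an expression cluster that came to 99.44% from this mouse. Of its monocyte gate, 84.8% lay in a cluster that came to 99.1% from it, and it gave only 113 B cells. Its neutrophil-gate level of Ifitm1, an interferon-inducible gene on the HSC marker list, was 2060 CPM (counts per fixed total, here on plain UMI totals), against 47.9 to 85 CPM in the other 5 mice. Results that rest on this mouse are given with and without it. Erythroid progenitors also fell into clusters that followed the processing day.

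The populations differed in nearly every one of these genes. In an edgeR quasi-likelihood fit over the 7 gates with mouse as block, 38 of the 39 genes varied between gates, and 99.2% of all 12170 genes tested did so too. The exception was Nprl2, a GATOR1 subunit (adjusted p = 0.9591). The median spread between the highest and the lowest gate was 1.718 on the log2 scale for the 39 genes and 2.247 for all genes, and 11 of the 39 exceeded the median of all genes. Levels in this part are CPM scaled by TMM across gates, given as mean ± SD over 6 mice. Because intron counting is not stated and gene length was not corrected for, levels are compared between populations for 1 gene and not between genes.

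Directions against the HSC gate depended in part on scaling. Scaling by plain UMI totals instead of TMM moved the median of all genes by -1.216 (log2) in neutrophils and by -0.10 to -0.42 in the other gates. Under TMM, 17 of the 39 genes were higher and 15 lower in neutrophils than in the HSC gate, beside 37.8% of all genes higher and 45.1% lower. Under plain totals these were 7 and 28. In all genes, the share of calls that were higher fell from 45.63% to 18.24%. Below, a gene is called higher or lower in a population only where it passed the threshold in the same direction under TMM, RLE size factors and plain totals. By this measure 7 genes were higher and 15 lower in neutrophils, beside 16.2% of all genes higher and 45.1% lower.

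In lymphoid-primed progenitors 5 of the 39 genes were higher and 4 lower under TMM (17.9% and 14.4% of all genes), and 2 and 4 under all 3 scalings (11.9% and 14.4%). Neutrophil progenitors had 18 higher and 12 lower (39.1% and 37.5% of all genes), of which 10 and 12 held (25% and 37.5%). Monocytes had 15 and 11 (37.2% and 32.2%), of which 9 and 11 held (24.4% and 32.2%). In these gates every gene that was lower under TMM was lower under all 3 scalings. The shares of all genes that were lower also stayed at 14.4%, 37.5% and 32.2%. RLE and plain totals moved the median of all genes down in every gate, so only the higher calls were put to the test. For B cells the counts were 16 and 7 (35.4% and 32.5%), and 10 and 7 held (25.3% and 32.5%). Erythroid progenitors had 21 and 9 (39.8% and 43.4%), and 10 and 9 held (28.4% and 43.4%). Under plain totals the share of calls over all genes that were higher fell from 55.47% to 37.47% in lymphoid-primed progenitors, from 51.05% to 31.8% in neutrophil progenitors, from 53.62% to 33.57% in monocytes, from 52.12% to 37.2% in B cells and from 47.81% to 34.09% in erythroid progenitors. RLE size factors gave 41.69% in lymphoid-primed progenitors, 40.8% in neutrophil progenitors and 41.35% in B cells.

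**Figure D1:**
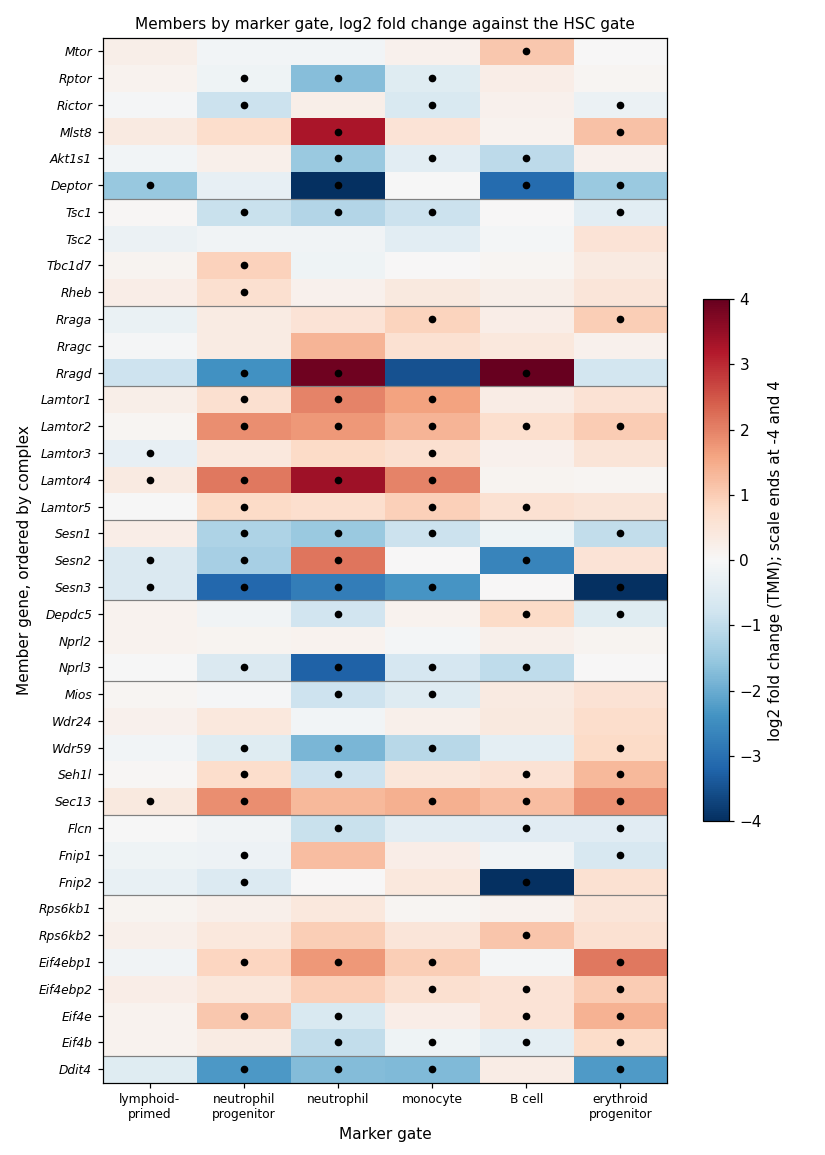
Heat map of the log2 fold change of each of the 39 genes (rows, ordered by complex) in 6 marker gates (columns) against the HSC gate, from the TMM fit over 6 mice. Red is higher and blue lower than in the HSC gate, the colour scale ends at -4 and 4, and a dot marks genes that passed the threshold in 1 direction under all 3 scalings. Ragulator genes are red in the 3 myeloid columns, Sesn3 is dark blue in erythroid progenitors, and Nprl2 is pale throughout.

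Among the complex subunits, Deptor, which encodes an inhibitor bound to both mTOR complexes, was highest in the HSC gate at 46.66 ± 8.855 CPM (SD, n = 6 mice). It was 2.219 ± 1.088 CPM in neutrophils, a log2 difference of -4.24 (SE 0.33, adjusted p = 1.709e-15), and the order held in 6 of 6 mice. The highest gate exceeded the lowest in 6 of 6 mice for every one of the 39 genes except Nprl2. Both gates were picked in these same mice, so such counts, here and below, are no separate support. Deptor was also lower in B cells (6.107 ± 2.221 CPM), lymphoid-primed progenitors (16.05 ± 4.01 CPM) and erythroid progenitors (16.85 ± 2.352 CPM). In monocytes it stood at 46.06 ± 8.309 CPM, close to the HSC gate (log2 difference -0.02, SE 0.19). Single mice ran from 35.9 to 56.12 CPM (median 47.05) in the HSC gate and from 1.027 to 4.08 CPM (median 2.105) in neutrophils. Neutrophil progenitors held 39.33 ± 12.69 CPM of Deptor, with the lowest value of 13.83 CPM in late rapamycin replicate 1 and a median of 43.46 CPM. Their difference from the HSC gate was -0.31 under TMM (adjusted p = 0.07364), and it was called lower under RLE (-0.54, adjusted p = 0.002321) and plain totals (-0.74, adjusted p = 0.0001195).

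Mlst8, which encodes the small subunit common to both complexes, showed the reverse order. Its level was 4.88 ± 1.552 CPM in the HSC gate and 48.55 ± 13.83 CPM in neutrophils, a log2 difference of 3.28 (SE 0.21, adjusted p = 1.558e-18). Among the other gates its highest level was 10.99 ± 1.537 CPM, in erythroid progenitors. In single mice it was 3.298 to 7.68 CPM (median 4.569) in the HSC gate and 33.5 to 67.41 CPM (median 47.75) in neutrophils, without overlap. Mlst8 overlaps Bricd5 on the other strand, and the strand setting of the counting is not stated. Mtor, Rptor, Akt1s1, Deptor, Tsc2, Rragc, Lamtor1, Nprl3, Seh1l, Fnip2, Rps6kb1 and Rps6kb2 also overlap a gene on the other strand. Sesn2 overlaps Gm12981 and Wdr24 overlaps Gm26694 on the same strand. Rptor, which encodes Raptor, was lower in neutrophils than in the HSC gate (29.36 ± 5.056 against 93.08 ± 7.685 CPM). Akt1s1, which encodes the mTORC1 inhibitor PRAS40, was likewise lower there (8.16 ± 1.102 against 22.82 ± 2.875 CPM). On the TMM scale Mtor itself lay between 33.81 ± 3.92 and 43.38 ± 2.011 CPM in 6 gates, and was 75.84 ± 13.73 CPM in B cells (log2 difference from the HSC gate 1.09, SE 0.11). Under plain totals Mtor was called lower than in the HSC gate in neutrophils (log2 -1.33, against -0.10 under TMM) and in neutrophil progenitors (-0.55, against -0.12). Rictor ranged from 57.08 ± 10.17 CPM in neutrophil progenitors to 120.6 ± 13.62 CPM in neutrophils. The neutrophil value was called neither higher nor lower than in the HSC gate, because its direction turned with the scaling (log2 0.24 under TMM, -0.97 under plain totals).

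In the TSC complex, Tsc1, which encodes hamartin, was lower than in the HSC gate (41.47 ± 4.519 CPM) in neutrophil progenitors, neutrophils, monocytes and erythroid progenitors, with 17.55 ± 3.699 CPM in neutrophils as its lowest level. Tsc2, which encodes the GTPase-activating subunit, was called in no gate under all 3 scalings and lay between 9.812 ± 1.775 and 19.5 ± 2.466 CPM. Rheb was higher in neutrophil progenitors (119.6 ± 9.869 CPM) than in the HSC gate (76.2 ± 6.249 CPM), and so was Tbc1d7, the third TSC subunit (12.99 ± 0.9229 against 6.919 ± 1.521 CPM).

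Of the 5 Ragulator genes, which form the lysosomal anchor, 5 were higher than in the HSC gate in monocytes under all 3 scalings (24.4% of all genes), 4 in neutrophil progenitors (25%) and 3 in neutrophils (16.2%). Lamtor4, a Ragulator subunit, rose from 57.91 ± 7.413 CPM in the HSC gate to 248.8 ± 15.82 CPM in neutrophil progenitors and 598.3 ± 42.35 CPM in neutrophils. Single mice had 50.35 to 69.74 CPM (median 56.36) in the HSC gate and 534.1 to 643.1 CPM (median 599.8) in neutrophils. The neutrophil difference was 3.38 on the log2 scale (SE 0.08, adjusted p = 3.44e-33), and all 6 mice had more in neutrophils. Monocytes held 226 ± 25.24 CPM of Lamtor4, while B cells (61.73 ± 6.072 CPM) and erythroid progenitors (60.28 ± 6.079 CPM) were close to the HSC gate. Lamtor1, the subunit that ties Ragulator to the lysosomal membrane, was 62.35 ± 5.743 CPM in the HSC gate, 187.2 ± 30.09 CPM in monocytes and 247.6 ± 43.99 CPM in neutrophils. Lamtor2 was higher than in the HSC gate in 5 of the 6 other gates, with 237.3 ± 15.22 against 64.82 ± 3.403 CPM in neutrophil progenitors. Lamtor3 was the exception in neutrophil progenitors (log2 0.41 under TMM, -0.01 under plain totals). In neutrophils Lamtor3 and Lamtor5 were higher under TMM (log2 0.76 and 0.66) and lower under plain totals (-0.46 and -0.56).

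Promoters of 4 of these lysosomal genes are shown because they share a sequence and, of the 7 populations, had their highest TMM level in neutrophils. They were chosen after their levels were seen. RefSeq promoter windows, from 250 bases before to 50 bases after the transcript start in GRCm38.p6, matched 33 of the 39 genes, with 35 windows. Capitals mark CACGTG, the E-box hexamer, a palindrome that MYC, USF and TFEB family proteins can bind. The windows are Lamtor4 at chr5:138255232-138255531, Lamtor1 at chr7:101905587-101905886, Fnip1 at chr11:54437929-54438228 and Rragc at chr4:123917183-123917482, all on the plus strand.
Lamtor4: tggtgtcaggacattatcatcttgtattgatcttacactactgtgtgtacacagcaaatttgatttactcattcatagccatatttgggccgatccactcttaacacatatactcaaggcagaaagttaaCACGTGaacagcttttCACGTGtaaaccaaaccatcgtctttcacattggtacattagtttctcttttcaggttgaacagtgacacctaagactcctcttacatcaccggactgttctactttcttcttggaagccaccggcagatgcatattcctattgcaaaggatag
Lamtor1: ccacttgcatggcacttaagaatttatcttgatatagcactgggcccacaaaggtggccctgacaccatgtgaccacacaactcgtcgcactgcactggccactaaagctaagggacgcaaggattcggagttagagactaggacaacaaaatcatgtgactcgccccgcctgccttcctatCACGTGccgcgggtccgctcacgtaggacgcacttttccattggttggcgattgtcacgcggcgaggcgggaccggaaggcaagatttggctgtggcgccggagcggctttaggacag
Fnip1: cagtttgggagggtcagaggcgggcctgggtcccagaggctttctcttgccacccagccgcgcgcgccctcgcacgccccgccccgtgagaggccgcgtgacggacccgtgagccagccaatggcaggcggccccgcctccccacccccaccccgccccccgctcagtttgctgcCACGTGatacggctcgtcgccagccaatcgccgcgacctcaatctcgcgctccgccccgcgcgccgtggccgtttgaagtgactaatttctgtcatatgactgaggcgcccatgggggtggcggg
Rragc: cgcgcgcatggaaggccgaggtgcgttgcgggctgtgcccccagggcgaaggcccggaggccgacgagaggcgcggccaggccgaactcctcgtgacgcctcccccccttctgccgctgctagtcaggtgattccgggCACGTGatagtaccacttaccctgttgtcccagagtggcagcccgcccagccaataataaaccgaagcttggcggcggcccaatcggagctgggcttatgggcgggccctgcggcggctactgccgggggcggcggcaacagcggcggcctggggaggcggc
The hexamer begins 120 and 104 bases before the start of Lamtor4, 68 before Lamtor1, 75 before Fnip1 and 112 before Rragc. Windows of Eif4e, Rheb and Tbc1d7 hold it too, which makes 7 of 35 windows (20%), against 7.15% of all 32851 windows. On the TMM scale Eif4e (44.28 CPM) and Tbc1d7 (5.556 CPM) had their lowest level in neutrophils, and Rheb was highest in neutrophil progenitors. Whether the hexamer goes with the level in neutrophils was not tested. On the TMM scale 10 of the 39 genes were highest in neutrophils. Besides these 4, they were Mlst8, Sesn2, Rictor and Nprl2, whose windows do not hold the hexamer, and Lamtor3 and Rps6kb2, for which no window was matched. Of the other motifs searched on both strands, CCGGAAG, an ETS site, was in 9 of 35 windows (25.7%) against 8.86% of all, and both the CLEAR palindrome, which contains the E-box, and TGATGCAAT, an amino acid response element core, were in 0 of 35, against 0.326% and 0.192%. These are matches of letters, and binding was not measured.

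Fnip1, which encodes a partner of folliculin, was 264.5 ± 32.38 CPM in neutrophils and 111.9 ± 8.406 CPM in the HSC gate (log2 1.23, SE 0.08 under TMM). The difference was 1.17 under RLE and 0.04 under plain totals. Rragc, a Rag GTPase, behaved alike, with 68.87 ± 9.514 against 26.98 ± 2.83 CPM, and log2 differences of 1.35 under TMM, 1.28 under RLE and 0.14 under plain totals. Both genes passed the threshold under TMM and RLE, and neither did under plain totals (adjusted p = 0.7339 for Fnip1 and 0.2358 for Rragc).

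Rragd, another Rag GTPase, was a gene of B cells and neutrophils. It reached 14.19 ± 3.708 CPM in B cells and 8.541 ± 4.832 CPM in neutrophils, against 0.5286 ± 0.4111 CPM in the HSC gate (log2 4.65, SE 0.46, and 3.90, SE 0.53). In B cells of single mice it was 8.29 to 19.19 CPM (median 14.24). No UMI of Rragd was counted among 5598885 UMIs of monocytes, which allows a level of up to 0.536 CPM. Rraga, which encodes RagA of the other Rag class, ranged less widely, from 20.35 ± 1.699 CPM in lymphoid-primed progenitors to 48.54 ± 2.663 CPM in erythroid progenitors.

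The 3 Sestrin genes had different patterns. Sesn3 was 76.75 ± 11.18 CPM in the HSC gate and 81.81 ± 9.606 CPM in B cells. It was 2.408 ± 0.8682 CPM in erythroid progenitors, a log2 difference from the HSC gate of -4.94 (SE 0.17, adjusted p = 8.38e-28), and the B cell level exceeded the erythroid level in 6 of 6 mice. Single mice ran from 65.58 to 91.19 CPM (median 85.54) in B cells and from 0.8343 to 3.13 CPM (median 2.812) in erythroid progenitors. This was the widest spread among the 39 genes. Neutrophil progenitors (9.114 ± 3.101 CPM), neutrophils (11.26 ± 4.266 CPM) and monocytes (15.86 ± 7.384 CPM) were also lower than the HSC gate. Sesn2 was highest in neutrophils (27.18 ± 4.263 CPM), at 6.206 ± 0.8223 CPM in the HSC gate, and lowest in B cells (0.7417 ± 0.6483 CPM). Its neutrophil values of 23.05 to 33.46 CPM (median 26.53) all lay above the B cell values of 0 to 1.354 CPM (median 0.8988). Sesn1 was highest in lymphoid-primed progenitors (171.2 ± 27.12 CPM) and lower than the HSC gate (140.6 ± 14.85 CPM) in neutrophil progenitors, neutrophils, monocytes and erythroid progenitors.

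**Figure D2:**
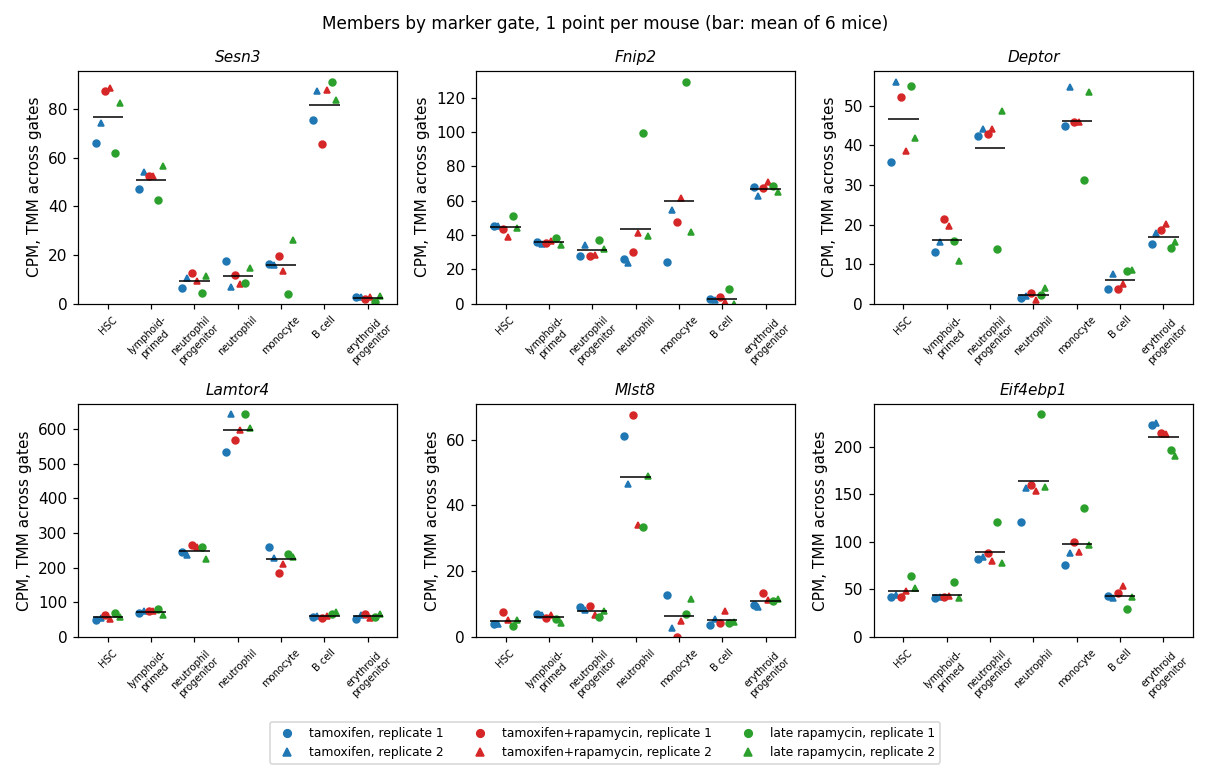
CPM (TMM across gates, vertical axes from 0) of 6 genes in 7 marker gates, with 1 point per mouse, colour for treatment, shape for replicate and a bar for the mean of 6 mice. Sesn3 is high in the HSC and B cell gates in all mice, Lamtor4 and Mlst8 rise in neutrophils, and late rapamycin replicate 1 lies above the other mice for Fnip2 in neutrophils and monocytes.

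GATOR1 and GATOR2 genes did not move as blocks. Nprl3, a GATOR1 subunit, was 22.39 ± 3.489 CPM in the HSC gate, 22.61 ± 4.458 CPM in erythroid progenitors and 1.837 ± 1.419 CPM in neutrophils (log2 -3.25, SE 0.27, adjusted p = 1.122e-14). In single mice it was 15.02 to 26.79 CPM (median 23.86) in erythroid progenitors and 0 to 4.08 CPM (median 1.611) in neutrophils. Nprl3 overlaps Mpg on the other strand. Depdc5, the largest GATOR1 subunit, was highest in B cells (93.37 ± 6.335 CPM) and lowest in neutrophils (31.87 ± 10.37 CPM). Nprl2 stayed between 7.082 ± 2.537 and 9.024 ± 4.353 CPM. In GATOR2, Wdr59 rose in erythroid progenitors (32.42 ± 4.078 CPM) over the HSC gate (19.09 ± 1.775 CPM) and fell in neutrophils (4.842 ± 2.552 CPM). The ranges were 29.77 to 40.53 CPM (median 30.87) and 1.356 to 7.317 CPM (median 5.936). Seh1l and Sec13, which also belong to the nuclear pore, reached 81.95 ± 3.504 and 86.63 ± 4.185 CPM in erythroid progenitors, against 33.26 ± 3.09 and 24.38 ± 2.912 CPM in the HSC gate. Mios was lower in neutrophils (17.32 ± 4.266 CPM) and monocytes (20.4 ± 4.767 CPM) than in the HSC gate (28.83 ± 2.717 CPM), and Wdr24 was called in no gate under all 3 scalings.

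In the folliculin complex, Fnip2 was 67.13 ± 2.892 CPM in erythroid progenitors, 44.56 ± 3.838 CPM in the HSC gate and 2.942 ± 2.938 CPM in B cells. The B cell difference from the HSC gate was -4.39 on the log2 scale (SE 0.37, adjusted p = 5.125e-14). Single mice had 62.8 to 71.15 CPM (median 67.69) of Fnip2 in erythroid progenitors and 0 to 8.29 CPM (median 2.394) in B cells. Flcn, which encodes folliculin, was lower than in the HSC gate (15.25 ± 2.6 CPM) in neutrophils, B cells and erythroid progenitors, with 7.94 ± 2.134 CPM in neutrophils.

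Downstream of mTORC1, erythroid progenitors had the highest levels of 4 genes of cap-dependent translation. Eif4ebp1, which encodes the translation repressor 4E-BP1, was 210.3 ± 14.11 CPM there and 48.72 ± 8.389 CPM in the HSC gate (log2 2.12, SE 0.09, adjusted p = 4.415e-24). In B cells, where Eif4ebp1 was lowest, single mice had 29.01 to 53.1 CPM (median 42.7), below the 189.7 to 224.7 CPM (median 214.2) of erythroid progenitors. Eif4e, the cap-binding factor that 4E-BP1 holds back, was 173.1 ± 11.15 against 66.01 ± 13.24 CPM. Eif4ebp2 was 149.4 ± 5.897 against 74.26 ± 5.703 CPM, and Eif4b 269.8 ± 15.18 against 163.4 ± 10.4 CPM. For Eif4ebp2 neutrophils were close on the TMM scale, at 144.2 ± 19.25 CPM. Single mice reached 166.3 CPM there and 157.7 CPM in erythroid progenitors. In neutrophils Eif4ebp1 was higher than in the HSC gate (163.7 ± 37.64 CPM), while Eif4e (44.28 ± 9.224 CPM) and Eif4b (81.34 ± 17 CPM) were lower. The S6 kinase gene Rps6kb1 varied least after Nprl2, from 84.14 ± 4.912 to 117.2 ± 4.058 CPM. Rps6kb2, which overlaps Coro1b and Ptprcap on the other strand, was 10.25 ± 1.034 CPM in the HSC gate and 20.05 ± 5.001 CPM in B cells. Ddit4, a stress-induced activator of the TSC complex, was 12.46 ± 1.942 CPM in the HSC gate, 15.44 ± 4.773 CPM in B cells and 2.44 ± 0.8011 to 4.405 ± 2.566 CPM in the myeloid and erythroid gates.

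Other small populations had too few cells per mouse for a test. In 298 megakaryocyte progenitor cells, summed over the mice, Eif4e was 160.1 CPM of plain totals (exact Poisson 95% interval 141.2 to 180.8). In 188 plasmacytoid dendritic cells Sesn3 was 98.05 CPM (71.24 to 131.6), and Deptor rested on 1 UMI. These intervals cover counting error only.

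The first treatment question was whether rapamycin given with tamoxifen in the first days of life left a mark on these genes in the HSC gate. No difference passed the threshold there. Of the 39 genes, 38 had enough counts to be tested, and Rragd did not. In edgeR's quasi-likelihood test with processing day as block and Benjamini-Hochberg adjustment over 11332 genes, 0 of 38 were called between tamoxifen with rapamycin and tamoxifen, where 0.0794% of all genes were called. At an unadjusted p under 0.05 there were 2 of 38, beside 5.89% of all genes, and DESeq2 called 0. Of the 38 genes, 21 lay above 0 and 17 below, with a median log2 difference of 0.034 (-0.001 for all genes). Approximate 95% intervals, from the SE and a normal quantile, lay within 1 log2 unit of 0 for 35 of the 38. For those genes a change of 2-fold or more lies outside this approximate interval. With few mice such intervals are narrower than the test allows. That of Lamtor1 between tamoxifen with rapamycin and late rapamycin was 0.009 to 0.484, while the quasi-likelihood test gave an unadjusted p of 0.06145. Levels in this part are CPM scaled by TMM within the gate, and samples are named by treatment and replicate.

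Sesn3 had the smallest p. Its levels were 116.8 and 115.8 CPM in the tamoxifen with rapamycin mice (replicates 1 and 2), 87.65 and 97.2 CPM in the tamoxifen mice, and 80.53 and 106.7 CPM in the late rapamycin mice. Both tamoxifen with rapamycin mice lay above the other 4. The log2 difference from tamoxifen was 0.32 (SE 0.13, adjusted p = 0.7606).

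Lamtor1 had a similar order, with 91.09 and 92.86 CPM in tamoxifen with rapamycin, 75.46 and 76.97 CPM in tamoxifen, and 76.22 and 78.65 CPM in late rapamycin. The log2 difference between the groups given tamoxifen was 0.27 (SE 0.12, adjusted p = 0.8451). For Nprl3 the levels were 32.32 and 36.58, 29.02 and 29.53, and 23.36 and 25.62 CPM in the same order of treatments, and the difference from tamoxifen was 0.25. Low counts made Mlst8 and Nprl2 uncertain. Mlst8 was 10.28 and 6.834 CPM in tamoxifen with rapamycin and 5.224 and 5.308 CPM in tamoxifen. Nprl2 was 5.142 and 11.26 CPM against 12.77 and 12.94 CPM.

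**Figure D3:**
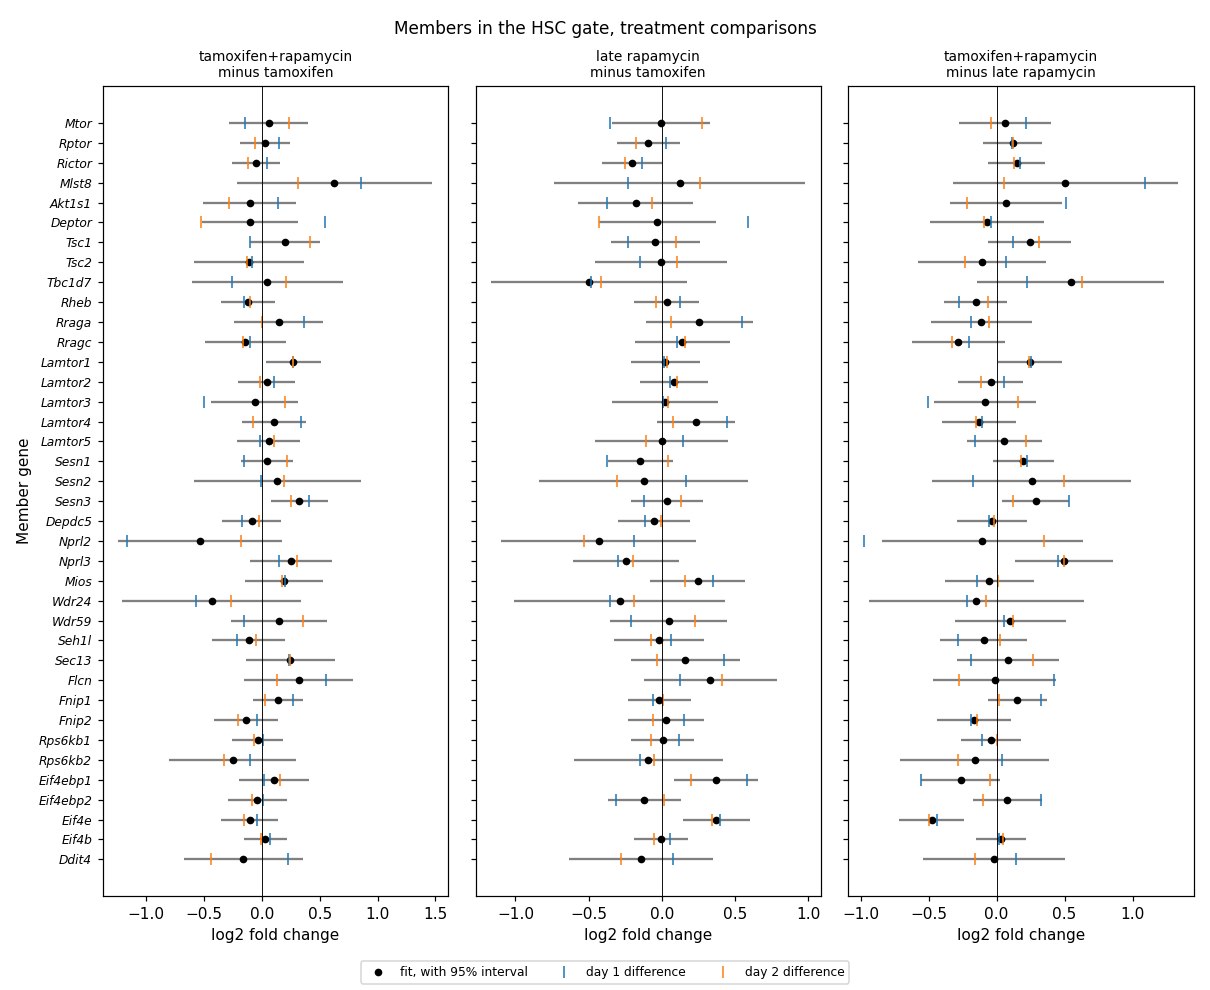
Log2 fold changes of the 38 tested genes (rows) in the HSC gate for the 3 treatment comparisons (panels). Black points are the edgeR fit with an approximate 95% interval (normal quantile), and coloured ticks are the differences of the single mice within day 1 and day 2. Most points lie near 0, and Eif4e lies to the left in the comparison of tamoxifen with rapamycin and late rapamycin, with both days on 1 side.

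The second question was whether rapamycin at postnatal day 30, shortly before isolation, differed from either neonatal treatment. Between late rapamycin and tamoxifen 0 of 38 genes were called (0.468% of all genes), with 2 of 38 at an unadjusted p under 0.05 (11.5% of all genes). Tamoxifen with rapamycin against late rapamycin gave 0 of 38 (0.777% of all genes), with 3 of 38 at an unadjusted p under 0.05 (15.1% of all genes). DESeq2 called 0 in both. The 3 comparisons share mice, so their values are not independent.

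Eif4e came closest to the threshold. It was 115 and 93.55 CPM in late rapamycin, 87.07 and 73.65 CPM in tamoxifen, and 84.47 and 65.93 CPM in tamoxifen with rapamycin. Both late rapamycin mice lay above the other 4, and the groups given tamoxifen overlapped each other. Tamoxifen with rapamycin against late rapamycin differed by -0.48 on the log2 scale (SE 0.12, adjusted p = 0.08889). Without a filter on low counts the adjusted p was 0.02495. In the 2047 cells of the stricter HSC gate the difference was -0.17 and in the HSC-like Leiden cluster -0.22, both closer to 0 than the first value, and neither was called. In cells with no UMI of 10 division genes it was -0.50 (adjusted p = 0.3569).

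Division genes moved with the same mice. Their summed level in the HSC gate, of plain totals, was 1335 and 1287 CPM in late rapamycin, 1088 and 839.4 CPM in tamoxifen, and 942.9 and 952.7 CPM in tamoxifen with rapamycin. Of 10 division genes, 10 lay below 0 in tamoxifen with rapamycin against late rapamycin (median log2 -0.495, beside 0.001 for all genes). Of them 2 were called, beside 0.777% of all genes. They were Ccnb2 (-0.88, SE 0.17, adjusted p = 0.03587) and Ube2c (-0.65, SE 0.14, adjusted p = 0.04855). Neither was called with DESeq2, without the replicate block, in the Leiden cluster or with stricter cell filters. Against tamoxifen, 10 of 10 lay above 0 in late rapamycin (median 0.426) and 0 were called.

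Eif4ebp1 was 83.6 and 66.14 CPM in late rapamycin, 55.72 and 57.39 CPM in tamoxifen, and 56.56 and 63.92 CPM in tamoxifen with rapamycin. Both late rapamycin mice exceeded the other 4, with replicate 1 far ahead. The log2 difference from tamoxifen was 0.37 (SE 0.15, adjusted p = 0.3593). Nprl3, whose levels are given above, was lowest in both late rapamycin mice, and tamoxifen with rapamycin exceeded late rapamycin by 0.50 (SE 0.19, adjusted p = 0.2309). Rictor was 123.6 and 123.9 CPM in late rapamycin and 135.8 and 147.6 CPM in tamoxifen. Lamtor4 was 90.98 and 75.08 against 66.75 and 71.33 CPM, and Mios 42.42 and 39.03 against 33.09 and 34.83 CPM. For these 3 genes the late rapamycin and tamoxifen mice did not overlap, and the adjusted p was 0.4939 for Rictor, 0.5515 for Lamtor4 and 0.6213 for Mios.

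The genes with the most UMIs in the HSC gate were Eif4b, Sesn1, Fnip1, Rictor and Rptor. Sesn1 was 153.1 and 185.9 CPM in late rapamycin, 199.1 and 180.8 CPM in tamoxifen, and 178.5 and 210.2 CPM in tamoxifen with rapamycin. Fnip1 was 131.5 and 149, 137 and 148, and 165.3 and 150.7 CPM in the same order, and both of its highest values were in tamoxifen with rapamycin. Eif4b (196.3 to 232.9 CPM) and Rptor (110.9 to 136 CPM) overlapped between all treatments. Among the tested genes with the fewest UMIs, Tbc1d7 was 6.762 and 7.448 CPM in late rapamycin, 9.868 and 10.28 CPM in tamoxifen, and 8.08 and 12.06 CPM in tamoxifen with rapamycin. Wdr24 ranged from 5.142 to 8.126 CPM and Sesn2 from 6.256 to 9.246 CPM. Mlst8 and Nprl2, given above, completed these 5.

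Other genes of the pathway were not called either. In each of the 3 comparisons 0 of 28 tested genes for PI3K, AKT and AMPK inputs, 0 of 23 for mTORC2, assembly and lysosomal sensing, 0 of 29 further mTOR targets and 0 of 6 rapamycin-binding immunophilins were called. Prkag2, an AMPK subunit, averaged 234.7 CPM in late rapamycin and 314.6 CPM in tamoxifen (log2 -0.42, SE 0.09, adjusted p = 0.05979). Fkbp1a, which encodes the rapamycin partner FKBP12, averaged 94.5 CPM in tamoxifen with rapamycin, 110 CPM in tamoxifen and 123.8 CPM in late rapamycin, and its difference between the first and the last was -0.40 (SE 0.12, adjusted p = 0.137). Grb10, an mTORC1 target, averaged 96.95 CPM in late rapamycin and 75.26 CPM in tamoxifen (adjusted p = 0.2545). In lysosomal sensing, Slc3a2, an amino acid transporter subunit, averaged 57.64 CPM in tamoxifen with rapamycin and 68.87 CPM in tamoxifen (adjusted p = 0.8556). Of the glucocorticoid-inducible (6 tested), p53 target (5) and immediate early (9) lists 0 genes were called. All 6 glucocorticoid-inducible genes lay below 0 in tamoxifen with rapamycin against tamoxifen (median log2 -0.412, beside -0.001 for all genes). At an unadjusted p under 0.05 there were 2 of these 6, beside 5.89% of all genes. Of 9 immediate early genes, 8 lay below 0 (median -0.302). Dusp1 is on both lists, and the genes of a list share the same mice, so the signs are not independent. Tsc22d3, a glucocorticoid-inducible gene, averaged 83 CPM in tamoxifen with rapamycin and 114.5 CPM in tamoxifen (adjusted p = 0.54), and Fosb, an immediate early gene, 30.44 CPM in tamoxifen with rapamycin and 48.97 CPM in late rapamycin (adjusted p = 0.08953).

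In the other 6 gates 0 genes of the 39 were called in any comparison. Over all 7 gates and 3 comparisons there were 747 tests with 30 to 38 genes each, 34 of them at an unadjusted p under 0.05 (4.55%), and the smallest adjusted p was that of Eif4e above. DESeq2 called 0. Percentages below are shares of all genes tested in the gate, given for tamoxifen with rapamycin against tamoxifen, late rapamycin against tamoxifen, and tamoxifen with rapamycin against late rapamycin, in this order.

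Erythroid progenitors had the most calls over all genes, with 0.766%, 1.45% and 0.568%. At an unadjusted p under 0.05 they gave 1, 5 and 3 of 38 genes, against 9.6%, 13.3% and 10% of all genes. Here Eif4ebp1 differed between late rapamycin and tamoxifen by -0.21 on the log2 scale (SE 0.06, adjusted p = 0.1071) and Ddit4 by -1.22 (SE 0.39, adjusted p = 0.1654). In lymphoid-primed progenitors the calls over all genes were 0.0444%, 0.0622% and 0.0888%, and 1, 3 and 2 of 38 genes had an unadjusted p under 0.05, against 5.31%, 8.31% and 8.96% of all genes. B cells had 0.528%, 0.0207% and 0.0932% of genes called, and 0, 1 and 1 of 36 genes at an unadjusted p under 0.05, against 9.91%, 5.3% and 5.46%. The 39 genes were thus near or below the share of all genes in these gates. Neutrophil progenitors had 0% of genes called, and 0, 3 and 3 of 38 genes at an unadjusted p under 0.05, against 1.65%, 6.78% and 6.38%. In neutrophils 0% were called, with 0, 1 and 1 of 31 genes, against 1.88%, 5.22% and 4.44%. Monocytes had 0.0232%, 0.0116% and 0% called, with 1, 1 and 0 of 30 genes, against 2.43%, 6.71% and 6.88%. Whether a treatment difference varied between a gate and the HSC gate was tested by interaction in 702 tests. Of these, 0 were called and 22 had an unadjusted p under 0.05. That fit had 12 residual degrees of freedom. The share of all genes called by interaction is not given here, so these counts do not set the 39 genes apart.

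Late rapamycin replicates 1 and 2 were unlike each other in the maturing myeloid gates. In neutrophil progenitors, late rapamycin replicate 1 had the highest level of all 6 mice in 16 of 38 genes and the lowest in 15. The other mice were highest in 1 to 7 genes and lowest in 3 to 7. With replicate 2 left out, so that replicate 1 alone stood for late rapamycin and was assumed to vary like the other mice, 56 calls appeared in the other gates, 28 of them in neutrophil progenitors (17 genes) and 18 in neutrophils (11 genes). In that setting 34% of all genes were called between late rapamycin and tamoxifen in neutrophil progenitors and 23.7% in neutrophils. Without replicate 1, Eif4ebp1 in erythroid progenitors differed between late rapamycin and tamoxifen by -0.24 on the log2 scale. These calls thus compare 1 mouse with the rest, not a treatment.

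Deptor differed most clearly in neutrophil progenitors, where it was 13.53 CPM in late rapamycin replicate 1 and 47.57 CPM in replicate 2. Its range in the other treatments was 41.48 to 43.05 CPM. Lamtor5 was 123 CPM in replicate 1 and 76.73 CPM in replicate 2, with 66.44 to 80.78 CPM elsewhere. Sec13 was 128.8 and 86.36 CPM, with 70.96 to 84.44 CPM elsewhere. In this gate, replicate 1 thus had more RNA of the Ragulator subunit Lamtor5 and the GATOR2 subunit Sec13, and less of the mTOR inhibitor Deptor, than every other mouse. Sesn1 (38.26 CPM) and Rictor (43.11 CPM) were likewise lowest in it, against 61.73 and 48.7 CPM in replicate 2.

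In neutrophils, Fnip2 was 53.31 CPM in late rapamycin replicate 1, 21.68 CPM in replicate 2 and 13.75 to 24.18 CPM in the other mice. Monocytes showed the same mouse ahead, with 127.5 CPM against 42.85 CPM in replicate 2 and 25.21 to 62.57 CPM elsewhere. Rragd was at 0 CPM in its neutrophils, a count of 0 among 5469075 UMIs, while the other 5 mice had 4.399 to 7.908 CPM. Mlst8 was 17.91 CPM in replicate 1 and 27.1 CPM in replicate 2, below the 19.95 to 40.33 CPM of the other mice only in replicate 1.

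Markers of other cell types moved in the same mouse. In its neutrophil progenitor gate the summed neutrophil markers were 10371.61 CPM, against 1115.16 to 6647.35 CPM in the other 5 mice. The summed HSC markers were 1156.76 CPM, against 171.25 to 249.28 CPM, and most of this was Ifitm1 at 1037 CPM, while Tcf15 was at 0 and Mecom was 22.17 CPM. In its monocyte gate the neutrophil markers summed to 5027.93 CPM, against 379.31 to 850.15 CPM. Their part in the differences of Deptor, Lamtor5, Sec13 and Fnip2 was not tested.

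**Figure D4:**
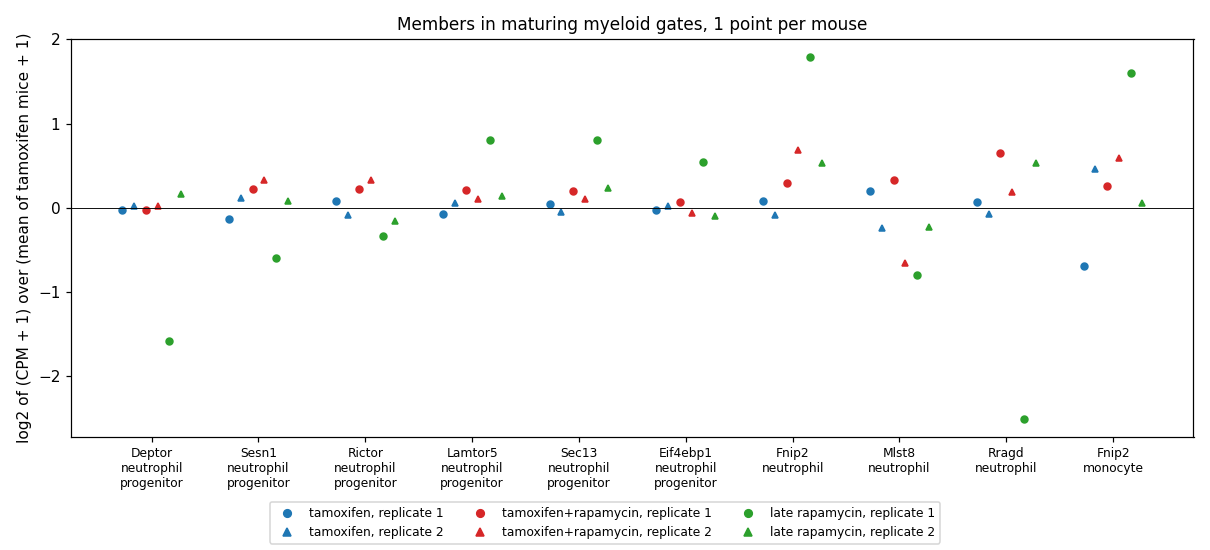
Levels of genes in 10 gene and gate pairs in maturing myeloid gates, as log2 of CPM plus 1 over the mean of the tamoxifen mice plus 1 (vertical axis), with 1 point per mouse, colour for treatment and shape for replicate. Late rapamycin replicate 1 (green circles) lies lowest for Deptor in neutrophil progenitors (13.53 CPM) and highest for Fnip2 in neutrophils (53.31 CPM). Late rapamycin replicate 2 (green triangles) had 47.57 and 21.68 CPM in these gates.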

How the data were processed

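The authors deposited 1 matrix per processing day with raw UMI counts of genes and hashtag antibodies, from Chromium 3′ v3 libraries, and a hashtag table. Version 7.0.0 of Cell Ranger and the build mm10 come from the submitters' processing notes, and the file headers give 8.0.1. Whether introns or strand were counted is not given in the sources used here. The matrices held 25058 and 21409 barcodes.

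The 39 genes and the gene lists were chosen with earlier results of these data known. Cells with exactly 1 hashtag (21862 and 18881), no fewer than 500 detected genes and 1000 UMIs, and a mitochondrial share up to 10%, were kept, after removing the 1504 and 1183 cells most like known multiplets, the number of doublets expected. Between the days, 58 barcodes of kept cells were shared. Marker scores were the mean over a list of log-normalised values capped at their 0.9 quantile, and the top score had to reach its minimum and 1.25 times the next. This rule was set after the scores and their overlap with clusters were seen. A first rule, by percentiles, was dropped, and no level of the 39 genes had been seen by then. No gate was given to 7838 cells, and 1674 lay between gates.

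Counts summed per mouse and gate were tested with edgeR 4.0.16 (quasi-likelihood, TMM, filterByExpr, two-sided, threshold 0.05 after Benjamini-Hochberg adjustment over all genes tested) in R 4.3.3. The 3 treatments shared 1 fit with day as block. The number pairs the mice because the labels say that it marks the day. Deviations of mice of the same day correlated by 0.062 to 0.093 over 11332 genes. DESeq2 1.42.0, other scalings, no filter, other cell sets and leaving out each mouse were alternatives, and plain totals were added after the data were seen. The interaction test was also added after the treatment results were seen. With 2 mice per treatment, p-values rest on the spread between few animals. Clusters came from scanpy 1.11.5 and leidenalg 0.10.2. The tests were checked on simulated data. The genes named were all 39, with values per mouse for up to 5 with the smallest p in each HSC comparison, the 5 highest and lowest in the HSC gate, the 10 with the widest range between gates, and up to 2 of each pathway list, of which a selection is given. Gene positions used GENCODE vM21 (GRCm38), in which 32158 of 32285 identifiers were found.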

Additional observations from a re-analysis of the deposited data

Results flagged for a closer look

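Of 85 sets of 6 mice tested (38 genes in the HSC gate and the 10 genes with the widest range in the other gates), 7 had 1 mouse far from the others, by Dixon's test at the 95% level. Chance gives about 1 in 20 for independent sets of like mice. Here the sets share the same 6 mice, mix treatments and days, and repeat genes across gates, so these counts are not independent. Late rapamycin replicate 1 was the outlying mouse in 6 of the 7. Its Eif4ebp1 level was the highest in the HSC gate (83.6 CPM), in lymphoid-primed progenitors (70.26 CPM, against 50.02 to 52.26 CPM in the others) and in neutrophil progenitors (118.7 CPM, against 76.17 to 85.29 CPM). Its Deptor level was the lowest in neutrophil progenitors (13.53 CPM). Fnip2 was highest in its neutrophils (53.31 CPM) and monocytes (127.5 CPM). In tamoxifen replicate 2, Wdr59 was highest in erythroid progenitors (39.57 CPM, against 29.12 to 31.68 CPM).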

How the results depend on the processing

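In the HSC gate 0 of the 39 genes were called in each comparison under every alternative run, apart from 1 (Eif4e) without the low-count filter between tamoxifen with rapamycin and late rapamycin, where calls over all genes rose from 88 to 478. The fit with no replicate block likewise called 0 of the 39 genes, and it lost the 2 division genes (0 called). Over all gene lists, division genes included, calls between tamoxifen with rapamycin and late rapamycin were also 0 with DESeq2 and in the Leiden cluster. The count was likewise 0 with stricter cell filters and in cells with no division UMI. It was 1 with RLE size factors and with plain totals, 11 without the filter, and 0 to 11 when 1 mouse was left out. The pathway lists went from 0 to 1 call in tamoxifen with rapamycin against tamoxifen without the filter (0 to 1 without 1 mouse). In late rapamycin against tamoxifen they went from 0 to 6 without the filter and to 3 in the stricter gate (0 to 9 without 1 mouse). The shares of all genes called in these settings are not given here, so these counts are not read as a result about the lists. In the other gates, 0 to 56 calls appeared when 1 mouse was left out, among them Eif4ebp1 in erythroid progenitors without late rapamycin replicate 1. Of 223 single values of named genes between treatments in the HSC gate under alternatives, 222 kept direction and side of the threshold and 1, Eif4e, passed it. Of 108 values of the 10 widest genes between gates, 108 kept both. Under plain totals the counts against the HSC gate went as follows: higher from 5 to 2 and lower from 4 to 7 in lymphoid-primed progenitors, 18 to 10 and 12 to 19 in neutrophil progenitors, 17 to 7 and 15 to 28 in neutrophils, 16 to 10 and 7 to 11 in B cells, 21 to 10 and 9 to 15 in erythroid progenitors, and higher from 15 to 9 in monocytes. RLE gave 2 higher in lymphoid-primed progenitors and 11 lower in B cells. Without the filter 2 were lower in lymphoid-primed progenitors, and leaving out 1 mouse gave 2 to 6. Cells thinned to 1000 UMIs gave 0 higher in lymphoid-primed progenitors, 10 in B cells and 12 in erythroid progenitors, with fewer UMIs behind each. Thinning also turned the sign, to values that were not called, of Eif4e in monocytes (log2 0.28 to -0.02), Rheb (0.25 to -0.002) and Rraga (0.28 to -0.01) in B cells, and Sesn2 (0.54 to -0.14) and Mios (0.59 to -0.01) in erythroid progenitors. Otherwise the cause was not tested. Depth limits Rragd, Mlst8, Nprl2, Wdr24, Sesn2 and Tbc1d7, with under 10 CPM in the HSC gate.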
